A study of Mus musculus with 12 samples.

Results

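The genes described here are 7 Frizzled receptors (Fzd1, Fzd2, Fzd3, Fzd7, Fzd8, Fzd9 and Fzd10) and 3 secreted Wnt antagonists of the Frizzled-related family (Sfrp1, Sfrp2 and Frzb). They were chosen by name: a probe set counted when the platform annotation gave it exactly 1 gene and that gene was among these 10, out of 18193 genes named in this way on the array. The 10 genes had 26 probe sets, of which 19 lay above the median signal of their own array on at least 2 arrays, and all 10 genes kept at least 1 probe set and were tested. The tissue was the posterior neural tube of CD1 mouse embryos, an outbred strain, at embryonic day 9.5. Tubes from 2 embryos, for which the labels give no mutation and no experimental treatment, were loosened with pancreatin at 2 mg per ml for 1 min, freed with needles from neighbouring layers and divided into 6 pieces, numbered part 1 to part 6. Every piece was measured on 2 Affymetrix arrays, labelled biological replicates 1 and 2, which gives 12 arrays. The labels do not say which end of the tube part 1 comes from, so positions are given by part number.

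Frizzled proteins are receptors that span the membrane several times and bind Wnt proteins through a cysteine-rich outer domain. With the co-receptors Lrp5 or Lrp6 they stabilise β-catenin, and with other partners they orient cells within an epithelium. Secreted Frizzled-related proteins carry a similar cysteine-rich domain without the membrane part and can bind Wnts outside the cell. In the caudal embryo, Wnt signals maintain the progenitors that extend the body axis, and in the closed neural tube they pattern the dorsal side and support growth.

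The values are array signals on a linear scale whose trimmed mean is 100 on every array, and the median signal of an array lay between 16.7 and 19.1. Signals of a few units cannot be told from background, and levels of different probe sets are not compared with each other. Slopes and differences are on the scale of log2(signal + 4.43), which understates the change of low signals. A gene is said to rise or fall along the series when limma's two-sided test of the slope per part number over the 12 arrays gave an adjusted p under 0.05, adjusted over 12089 genes.

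The pieces differed in their tissue markers. The summed signal of 8 neural tube markers was 6984 and 7564 in part 6, against 1325 and 1226 in part 1, and 6 of these markers rose along the series, Irx3 and Sox2 among them. Presomitic mesoderm, the unsegmented tissue beside the caudal tube, is named together with the neural tube in the labels' account of the dissection. The 7 presomitic markers summed to 117 and 175 in part 6, against 2984 and 1379 in part 1, and 3 of the 6 tested fell, Hes7 and Dll3 among them. The 8 surface ectoderm markers summed to 128 and 126 in part 6, against 1129 and 409 in part 1, and 6 of the 7 tested fell, Krt8 and Krt18 among them. No marker of these 3 lists was listed at 0 on any array. Signals of a few units may be background, so this does not place a tissue in every piece. In bulk pieces such as these, fewer cells of a type and less RNA per cell cannot be told apart.

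**Figure D1:**
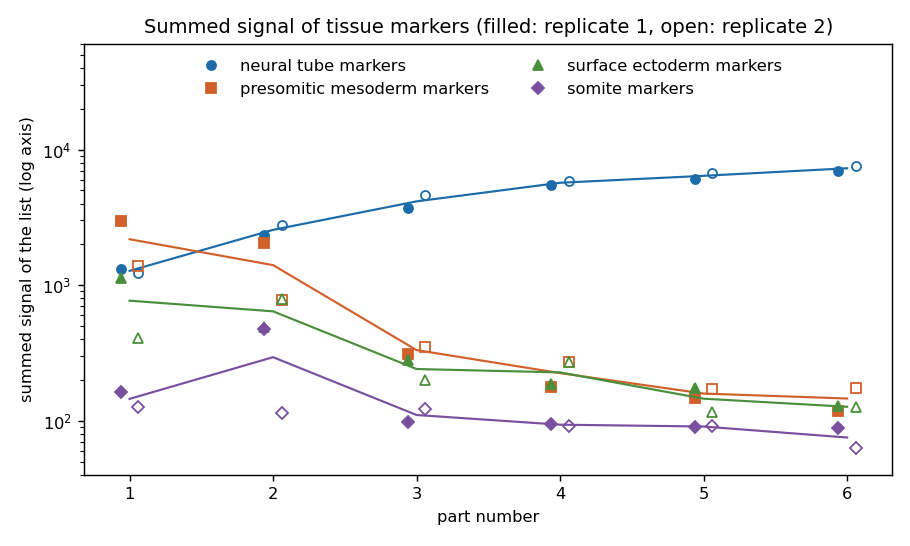
Summed array signal (log axis) of the listed markers of 4 tissues in parts 1 to 6; filled symbols are replicate 1, open symbols replicate 2, and lines join the piece means. Neural tube markers sum to 6984 and 7564 in part 6 against 1325 and 1226 in part 1, and the presomitic and surface ectoderm sums are lowest in parts 5 and 6.

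Of the 10 genes, 7 rose along the series, none fell, and 3 did not pass the slope test, while 5.64% of all genes tested rose and 7.05% fell. The risers were 5 of the 7 receptors (Fzd2, Fzd3, Fzd7, Fzd8 and Fzd9) and 2 of the 3 antagonists (Sfrp1 and Sfrp2). Fzd1, Fzd10 and Frzb did not pass, Fzd1 with a negative slope at an unadjusted p of 0.0244. The 10 genes are only part of their families. Outside them Fzd5 fell, and Fzd4, Fzd6, Sfrp4 and Sfrp5 did not pass, as given below. The median slope of the 10 genes was 0.23 log2 per part, and that of all genes tested was -0.01. Between the ends, 6 genes were higher in part 6 than in part 1 (the risers other than Sfrp1) and none was lower (Fzd1 had an unadjusted p of 0.0186), where 4.14% of all genes were called higher and 4.86% lower. The F test among the 6 pieces, which asks for any difference rather than a straight line, called Fzd2, Fzd3, Fzd8, Fzd9 and Sfrp2, and 4.89% of all genes. The call of Fzd3 in that test (adjusted p = 0.0241) was lost with 7 of the 12 arrays left out singly (adjusted p up to 0.0907), with no filter on low values (0.0659) and with the mean of its kept probe sets (0.362). Both part 6 arrays lay above both part 1 arrays for all 7 risers and below them for Fzd1, patterns that 20.2% and 26.7% of all genes showed. Arrays of parts 6 and 1 overlapped for Fzd10 and Frzb.

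**Figure D2:**
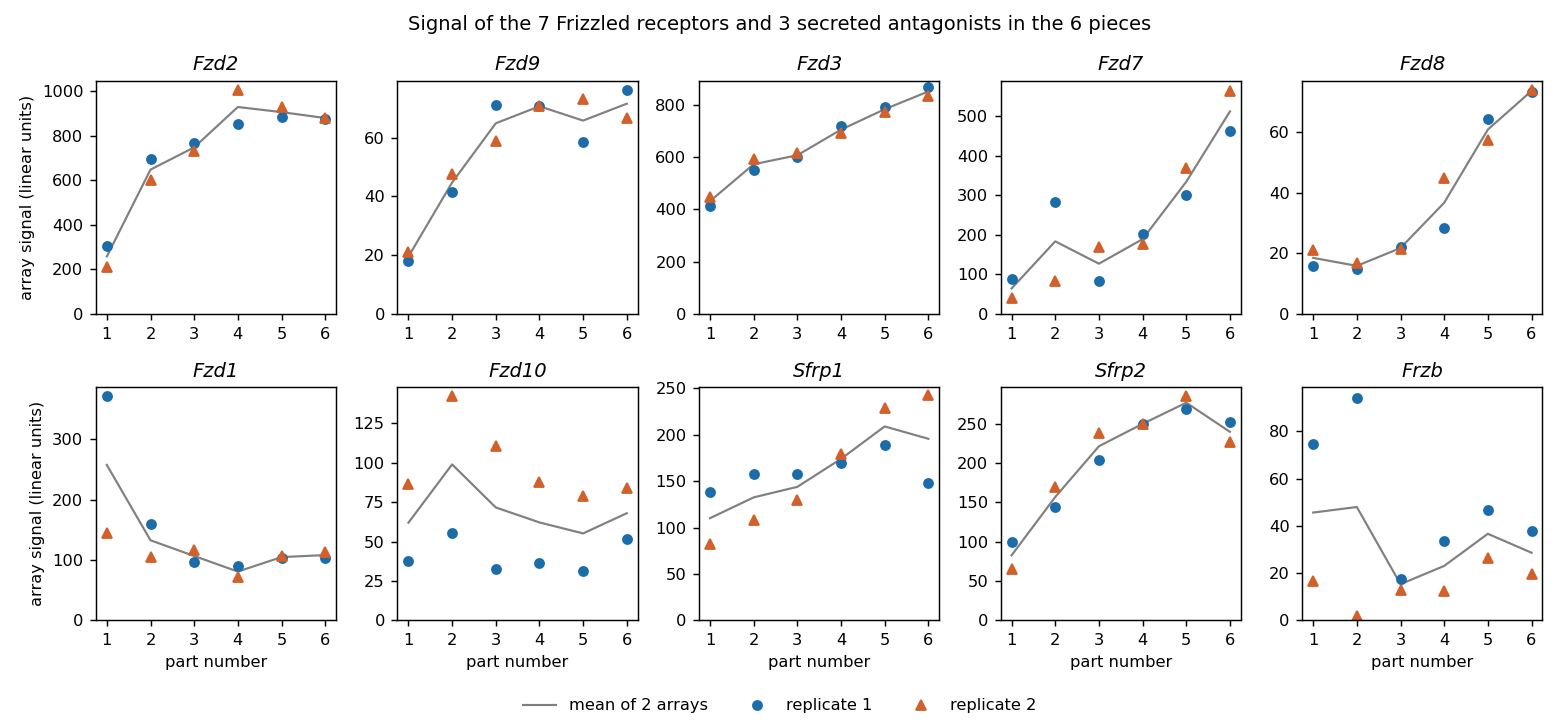
Array signal (linear units, each panel with its own axis from 0) of the 7 receptors and 3 antagonists in parts 1 to 6; points are single arrays by replicate and the line is the mean of 2 arrays. Fzd2, Fzd9 and Sfrp2 climb over the first pieces and then level off, Fzd3, Fzd7 and Fzd8 still climb in the last pieces, and Fzd10 is higher in replicate 2 in every piece.

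Among the 6 risers that were also higher in part 6 than in part 1, the course along the series took visibly different shapes. By part 3, Sfrp2 had covered 92.4%, Fzd9 91.9% and Fzd2 86.9% of the difference between part 6 and part 1, while Fzd3 had covered 50.3%, Fzd7 31.4% and Fzd8 11.3%. The slope was also fitted over parts 3 to 6 alone, where 1.95% of 11574 genes rose. Fzd3, Fzd7 and Fzd8 passed in that fit and Fzd2, Fzd9, Sfrp1 and Sfrp2 did not. This fit was chosen after those shares were seen and restates them on the same arrays, so its values describe the shape and are no further support for it. A difference in shape between genes was not itself tested.

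**Figure D3:**
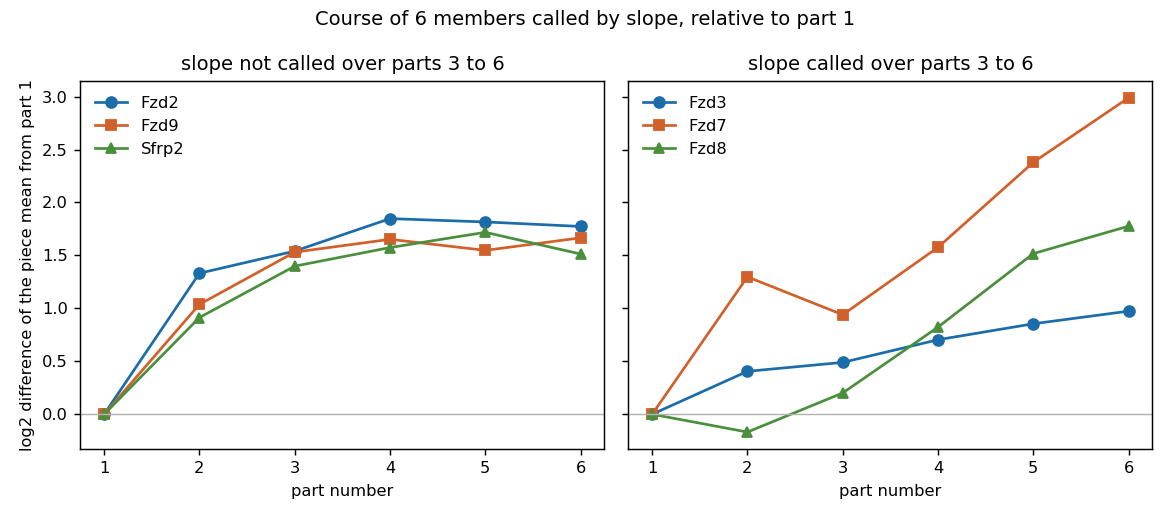
Log2 difference of each piece mean from the part 1 mean, by part number, for 6 genes that rose along the series; genes whose slope did not pass over parts 3 to 6 are on the left and those whose slope passed are on the right, a split that describes the shapes and does not test them. Fzd2, Fzd9 and Sfrp2 reach 1.54, 1.53 and 1.40 by part 3, and Fzd8 reaches 0.20 there and 1.78 in part 6.

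Promoter sequence is shown for 1 receptor that climbed to the last piece (Fzd7) and for a receptor and an antagonist that levelled off (Fzd9 and Sfrp2), so that genes of different course can be read side by side. RefSeq entries were matched for 6 of the 10 genes (Fzd1, Fzd7, Fzd9, Fzd10, Sfrp2 and Frzb). The stretches are the 250 bases before the annotated start on mouse build GRCm38.p6, at chr1:59481897-59482146 on the plus strand for Fzd7, chr5:135251048-135251297 on the minus strand for Fzd9 and chr3:83766071-83766320 on the plus strand for Sfrp2. They read 5′ to 3′ along the gene, and capitals mark a match to letters that TCF/LEF factors, the transcription factors of the β-catenin branch, are known to bind.
Fzd7: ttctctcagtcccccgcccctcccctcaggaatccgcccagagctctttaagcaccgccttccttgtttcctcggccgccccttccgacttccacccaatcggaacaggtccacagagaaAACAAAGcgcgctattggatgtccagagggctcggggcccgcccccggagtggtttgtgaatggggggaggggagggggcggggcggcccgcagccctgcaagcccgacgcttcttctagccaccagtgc
Fzd9: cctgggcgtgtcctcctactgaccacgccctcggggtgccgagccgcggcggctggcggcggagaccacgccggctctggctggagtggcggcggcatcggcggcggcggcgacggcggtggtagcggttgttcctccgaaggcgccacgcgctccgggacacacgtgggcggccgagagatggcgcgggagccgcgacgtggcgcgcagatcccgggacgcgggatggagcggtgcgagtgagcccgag
Sfrp2: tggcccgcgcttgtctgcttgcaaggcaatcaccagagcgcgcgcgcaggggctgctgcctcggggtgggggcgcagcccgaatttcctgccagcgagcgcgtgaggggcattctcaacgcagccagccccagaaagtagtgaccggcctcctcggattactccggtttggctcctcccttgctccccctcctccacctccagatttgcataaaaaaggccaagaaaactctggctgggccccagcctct
The word CTTTGAA was searched on both strands, with CTTTGAT as an alternative form, CTTTGTA as a further form and CTTTGTT as the last one. At least 1 of these forms was held by 14.8% of 32851 promoter stretches of the same length. Among the 6 genes matched, Fzd7 held the only match, AACAAAG at position -130, counted back from the annotated start, and none held CATTGT, the letters of SoxB factors, which 10.7% of all stretches held. The CG dinucleotide occurred 17 times in the Fzd7 stretch, 42 times in that of Fzd9 and 16 times in that of Sfrp2, against a median of 6 over all stretches. A match is a run of letters and not a measured binding site.

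Fzd2, a receptor that in mouse acts with Fzd7 and Fzd1 in closure of the neural tube and palate, had the largest step between the first pieces of the series. Its signal was 305 and 212 in part 1, 696 and 600 in part 2, 766 and 730 in part 3, 853 and 1006 in part 4, 882 and 931 in part 5 and 877 and 882 in part 6. Both part 1 arrays lay below every other array. The mean was 880 ± 3.23 in part 6 and 258 ± 66.1 in part 1 (SD, n = 2 each), a ratio of 3.41. The slope was 0.30 ± 0.068 log2 per part (SE, adjusted p = 0.00929), and part 6 exceeded part 1 by 1.77 ± 0.20 (adjusted p = 0.000576). Fzd2 was the only one of the 10 genes called between consecutive pieces, where few genes were called in all (0.190% between parts 3 and 2, and 0.00827% at each later step). Part 2 exceeded part 1 by 1.33 ± 0.20 (adjusted p = 0.0364), a step for which 0.165% of all genes were called higher. That call was lost when any of 11 of the 12 arrays was left out, with adjusted p up to 0.154. Over parts 3 to 6 the slope was 0.07 (95% interval -0.04 to 0.18, adjusted p = 0.629). Its other probe sets, both kept, gave slopes of 0.41 and 0.30 and followed the first with r of 0.97 and 0.99 over the 12 arrays, which are shared.

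Fzd9, a receptor studied in mouse hippocampus and bone and lying in the deleted region of Williams syndrome in human, took the same shape at a low signal. It read 18.0 and 21.0 in part 1, close to the array medians, then 41.7 and 47.8 in part 2, 71.0 and 58.7 in part 3, 70.7 and 70.6 in part 4, 58.5 and 73.1 in part 5 and 76.3 and 66.7 in part 6. All arrays from part 3 on lay above all arrays of parts 1 and 2. Its mean was 71.5 ± 6.78 in part 6 and 19.5 ± 2.11 in part 1 (SD, n = 2 each), a ratio of 3.67. The slope was 0.29 ± 0.060 (adjusted p = 0.00657), the end difference 1.67 ± 0.18 (adjusted p = 0.000491), and the slope over parts 3 to 6 was 0.03 (95% interval -0.08 to 0.14, adjusted p = 0.875). The mean of parts 3 and 4 exceeded the mean of parts 1 and 6 by 0.76 ± 0.13 for Fzd9 (adjusted p = 0.0264) and by 0.81 ± 0.14 for Fzd2 (adjusted p = 0.0303). These were the only 2 of the 10 genes called in that comparison, in which 0.579% of all genes were called higher. The calls reflect the low part 1 and not an inner peak. On the log2 scale Fzd9 averaged 6.11 and 6.23 in parts 3 and 4, 6.24 in part 6 and 4.58 in part 1. Fzd2 averaged 9.56 and 9.86 in parts 3 and 4, 9.79 in part 6 and 8.01 in part 1. Leaving out 1 array ended the call for Fzd9 with 6 of the 12 arrays and for Fzd2 with 8 of them. The presomitic marker sum was 2984 and 1379 in part 1, 2034 and 777 in part 2 and 312 and 352 in part 3. The pieces in which these receptors levelled off were those with low sums. By part 2, Fzd2 had covered 75.1% and Fzd9 62.3% of the difference between part 6 and part 1. The part of the presomitic change in these courses was not tested.

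Fzd3, a receptor of the planar polarity branch needed in mouse for axon guidance and, with Fzd6, for neural tube closure, climbed in every piece with little spread. Its signal was 413 and 449 in part 1, 551 and 593 in part 2, 599 and 614 in part 3, 718 and 690 in part 4, 791 and 773 in part 5 and 867 and 833 in part 6. Each piece from part 2 on lay, on both arrays, above both arrays of the piece before it. The mean was 850 ± 24.3 in part 6 and 431 ± 24.9 in part 1 (SD, n = 2 each), a ratio of 1.97. The slope was 0.18 ± 0.023 (adjusted p = 0.000141), and over parts 3 to 6 it was 0.16 (95% interval 0.08 to 0.24, adjusted p = 0.0395). The end difference was 0.97 ± 0.15 (adjusted p = 0.00312). The even course described here is that of 1 probe set. The other 4 kept probe sets of Fzd3 gave slopes of 0.12, -0.02, 0.06 and 0.16, none called when all kept probe sets were tested together, and followed the first with r of 0.56, -0.18, 0.29 and 0.53. With the mean of all kept probe sets the end difference was 0.45 (adjusted p = 0.133).

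Fzd7, a Wnt receptor of stem and progenitor cells, had the largest end difference of the 10 genes and the widest spread among the risers. It read 88.2 and 40.9 in part 1, 284 and 83.5 in part 2, 83.8 and 171 in part 3, 202 and 176 in part 4, 300 and 369 in part 5 and 462 and 563 in part 6. The part 6 arrays stood above all others, while the arrays of parts 2 and 3 overlapped and differed between replicates in opposite directions. Its mean was 512 ± 71.8 in part 6 and 64.5 ± 33.4 in part 1 (SD, n = 2 each), a ratio of 7.94. The slope was 0.54 ± 0.091 (adjusted p = 0.00150), and over parts 3 to 6 it was 0.70 (95% interval 0.50 to 0.89, adjusted p = 0.00248). The end difference of 2.99 ± 0.54 (adjusted p = 0.00859) was no longer called when replicate 2 of part 1 (adjusted p = 0.0502) or of part 6 (adjusted p = 0.0633) was left out. Its F test did not pass (adjusted p = 0.0702), though it passed when either array of part 2 was left out (adjusted p = 0.0161 and 0.0188).

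Fzd8, whose mouse cysteine-rich domain was solved in complex with a Wnt, stayed near the array median in the first 3 pieces and climbed after them. It read 15.8 and 21.2 in part 1, 15.0 and 16.8 in part 2, 22.2 and 21.4 in part 3, 28.5 and 45.0 in part 4, 64.4 and 57.5 in part 5 and 73.4 and 74.0 in part 6. Every array of parts 4 to 6 lay above every array of parts 1 to 3. The mean was 73.7 ± 0.452 in part 6 and 18.5 ± 3.82 in part 1 (SD, n = 2 each), a ratio of 3.98. Fzd8 had the smallest adjusted p of the 10 genes for the slope, 0.42 ± 0.047 log2 per part (adjusted p = 6.79e-05), and the slope over parts 3 to 6 was 0.54 (95% interval 0.40 to 0.69, adjusted p = 0.00191). The end difference was 1.78 ± 0.21 (adjusted p = 0.000884). A second probe set, with a mean signal of 10.3, gave a slope of 0.30. It passed the filter on low values only through the part 6 arrays (20.1 and 27.7), so its slope is no further support. The neural tube marker sum also climbed between these pieces, to 6984 and 7564 in part 6 against 3684 and 4613 in part 3, and its part in the course of Fzd3, Fzd7 and Fzd8 was not tested.

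**Figure D4:**
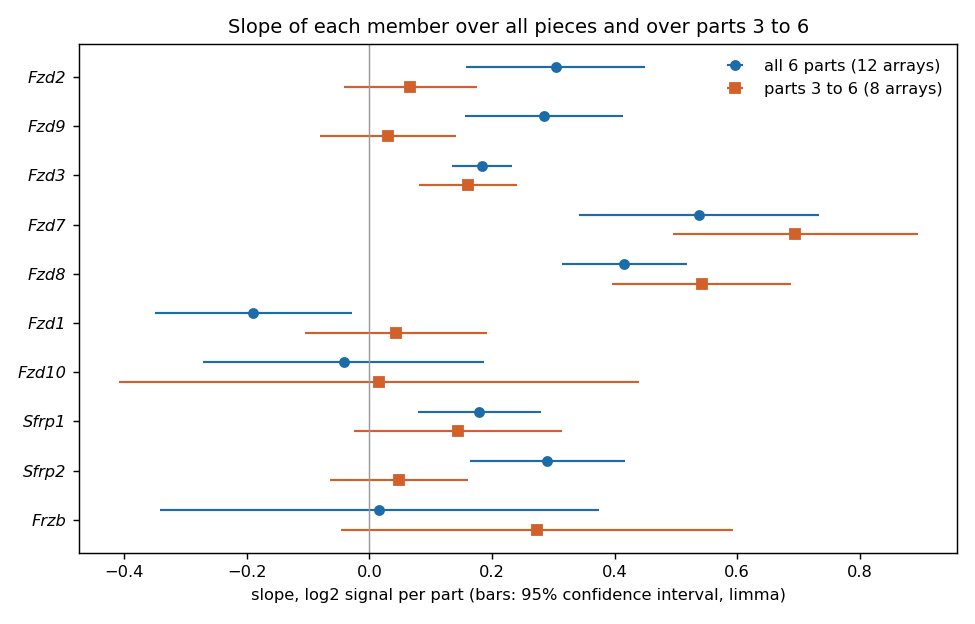
Slope, in log2 signal per part, of each of the 10 genes, over all 6 parts (12 arrays, circles) and over parts 3 to 6 (8 arrays, squares); bars are limma's 95% confidence intervals and the vertical line marks 0. Fzd3, Fzd7 and Fzd8 lie to the right of 0 in both fits, while the intervals of Fzd2, Fzd9 and Sfrp2 over parts 3 to 6 include 0.

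Fzd1 and Fzd10 were the receptors that did not pass the slope test. Fzd1, which in mouse overlaps in function with Fzd2, read 371 and 144 in part 1, 160 and 105 in part 2, 97.4 and 116 in part 3, 89.3 and 72.4 in part 4, 104 and 106 in part 5 and 103 and 114 in part 6. The high value was replicate 1 of part 1, the array with the highest presomitic and surface ectoderm sums (2984 and 1129, against 1379 and 409 in replicate 2), whose part in the result was not tested. The slope was -0.19 ± 0.075 (adjusted p = 0.121) and the end difference -1.07 ± 0.38 (adjusted p = 0.119). With replicate 2 of part 1 left out, so that part 1 was the high array alone, the end difference was -1.74 and was called (adjusted p = 0.00666). With replicate 1 of part 1 left out it was -0.40 (adjusted p = 0.360) and the slope was -0.081, and over parts 3 to 6 the slope was 0.04. A second probe set of Fzd1 did not pass the filter on low values, with piece means from 6.38 to 14.1.

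Fzd10, a receptor known from the dorsal neural tube of chick and mouse, differed between the embryos rather than along the series. Replicate 2 read 86.2, 142, 111, 87.6, 79.1 and 84.0 in parts 1 to 6, and replicate 1 read 37.7, 55.7, 32.8, 36.7, 31.2 and 51.9. Replicate 2 was higher in 6 of 6 pieces, and no replicate 2 array lay below any replicate 1 array. With the piece as a factor the difference was 1.18 ± 0.12 log2 (adjusted p = 0.00306), and Fzd10 was the only one of the 10 genes called, where 0.720% of all genes were higher in replicate 2 and 0.902% lower. Leaving out any 1 array kept the difference between 1.09 and 1.28, with adjusted p up to 0.0165. These p-values treat the pieces of 1 embryo as independent, so they show agreement over pieces and not spread between embryos. The slope was -0.04 ± 0.11 (adjusted p = 0.847). The numbers follow the embryo: Xist, the RNA of the inactive X chromosome, read 19.5 to 29.7 in replicate 2 and 650 to 1124 in replicate 1, and the Y-linked Eif2s3y read 160 to 346 in replicate 2 and 0.338 to 7.29 in replicate 1 (genes chosen after their values were seen). With 1 embryo of each kind, a difference between the sexes cannot be told apart from one between individuals or preparations. Fzd10os, annotated antisense to Fzd10, had 2 probe sets, 1 of which read 21.8 to 40.3, with replicate 2 higher in 2 of 6 pieces.

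Sfrp2 and Sfrp1, antagonists that in mouse act redundantly in the elongation of the body axis, both rose. Sfrp2 read 99.8 and 65.4 in part 1, 144 and 169 in part 2, 204 and 239 in part 3, 250 and 249 in part 4, 268 and 285 in part 5 and 252 and 227 in part 6. Its arrays of parts 1, 2 and 3 formed steps without overlap, and those of parts 3 and 6 overlapped. The mean was 240 ± 18.3 in part 6 and 82.6 ± 24.3 in part 1 (SD, n = 2 each), a ratio of 2.90. The slope was 0.29 ± 0.058 (adjusted p = 0.00504), the end difference 1.51 ± 0.21 (adjusted p = 0.00201), and the slope over parts 3 to 6 was 0.05 (95% interval -0.06 to 0.16, adjusted p = 0.773). The course of Sfrp2 followed that of Fzd2 with r = 0.96 and that of Fzd9 with r = 0.93 over the 12 arrays, which come from 2 embryos and are shared, so these are descriptions. With Fzd8 it was r = 0.64. The presomitic marker sum was lower where Sfrp2 was higher, at 312 and 352 in part 3 against 2984 and 1379 in part 1, and its part in the course of Sfrp2 was not tested.

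Sfrp1 rose less evenly. It read 138 and 82.0 in part 1, 157 and 108 in part 2, 158 and 130 in part 3, 169 and 179 in part 4, 189 and 229 in part 5 and 148 and 243 in part 6. Replicate 2 was the lower in parts 1 to 3 and the higher in parts 4 to 6. The mean was 196 ± 66.8 in part 6 and 110 ± 39.7 in part 1 (SD, n = 2 each), a ratio of 1.78. The slope was 0.18 ± 0.047 (adjusted p = 0.0219), and the end difference of 0.81 ± 0.31 was not called (adjusted p = 0.150). Without replicate 2 of part 1 or of part 6 the slope was 0.14 or 0.16 and no longer passed (adjusted p = 0.0718 and 0.0761). Fitted within each replicate, the slope was 0.32 in replicate 2 and 0.04 in replicate 1. The difference between these slopes, 0.28 ± 0.052, did not pass limma's test (adjusted p = 0.657, unadjusted p = 0.000194). None of the 12089 genes passed that test, and 799 had an unadjusted p under 0.05. The other 2 kept probe sets of Sfrp1 gave slopes of 0.22 and 0.21, both called over all kept probe sets (adjusted p = 0.0367 and 0.0105).

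**Figure D5:**
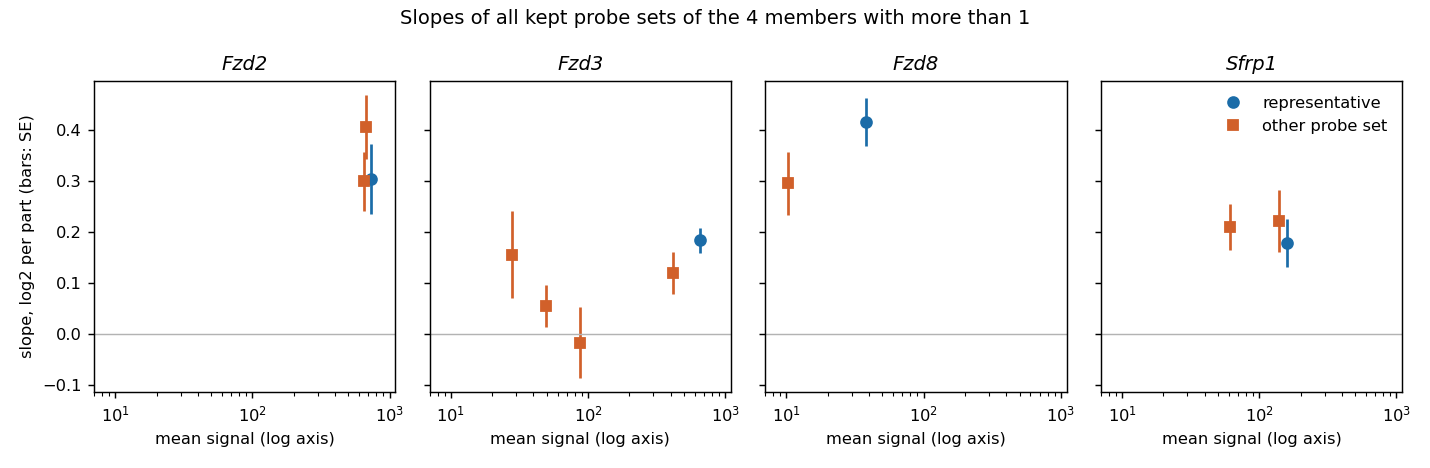
Slope of the log2 signal per part (bars: SE) against mean signal (log axis) for every kept probe set of the 4 genes with more than 1; circles are the probe sets that represent the gene and squares the others. The probe sets of Fzd2, Fzd8 and Sfrp1 all lie between 0.18 and 0.42 log2 per part, and those of Fzd3 spread from -0.02 to 0.18. The dimmer probe set of Fzd8 was kept only through its part 6 arrays.

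Frzb, an antagonist first studied in cartilage that blocks Wnt8 in Xenopus, showed no course that exceeded its spread. It read 74.5 and 16.7 in part 1, 93.9 and 1.98 in part 2, 17.7 and 13.0 in part 3, 33.5 and 12.6 in part 4, 46.7 and 26.6 in part 5 and 37.7 and 19.6 in part 6. Replicate 2 was lower in 6 of 6 pieces, by -1.48 ± 0.42 log2, which did not pass (adjusted p = 0.117). The slope was 0.02 ± 0.17 (95% interval -0.34 to 0.37, adjusted p = 0.969). Its 2 highest arrays, replicate 1 of parts 2 and 1, were also the 2 highest for the summed signal of the 8 somite markers, with 474 and 163 against 115 and 127 in replicate 2. On these 2 arrays Foxc2, a somite marker, read 185 and 36.6, and it did not exceed 1.21 on any other array. Tcf15, of the same list, read 157 and 92.2 there, against 91.0 and 88.8 in replicate 2. Pax1 in both parts, Pax9 in part 2 and Meox2, Uncx and Myf5 in part 1 were lower in replicate 1, mostly at a few units. Replicate 1 of part 2 also had the highest notochord (588) and gut endoderm (128) marker sums of the series. The part of other tissues in the level of Frzb was not tested. A second probe set of Frzb was not kept, with piece means between 3.14 and 8.77.

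The genes most like each riser were searched among 1837 tested genes whose piece means spanned at least 1 on the log2 scale, by Pearson r of the log2 signal over the 12 arrays. Fzd2 was nearest to Gli2, a transcription factor of the Hedgehog pathway (r = 0.98), and to Ints6, a subunit of the Integrator complex (0.97). Sfrp2 was nearest to the same Gli2 (0.98) and to the surface protein gene Igdcc3 (0.98). Fzd9 was nearest to Sox2, a factor of neural progenitors (0.98), and to the collagen receptor gene Ddr1 (0.97). Fzd8 was nearest to Pax6, a patterning factor of the neural tube (0.98), and to Gfra3 (0.97). Fzd3 was nearest to Tshz1 (0.99) and to Neurog2, a proneural factor (0.99). Fzd7 was nearest to Prtg (0.93) and Smarcd3 (0.92), and Sfrp1 to B4galt6 (0.89) and Greb1l (0.88). Among the neighbours named, Sox2 stood only with Fzd9 (Spearman rho 0.67) and Pax6 only with Fzd8 (0.94). Sox2 itself read 1426 and 1611 in part 6, 1207 and 1558 in part 3 and 199 and 286 in part 1, whereas Pax6 read 354 and 329 in part 6, 27.1 and 30.6 in part 3 and 17.2 and 34.2 in part 1. Both are members of the neural tube marker list.

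The remaining Wnt receptors and co-receptors did not move in 1 direction. Of 8 tested, 2 rose, 3 fell and 3 did not pass, with a median slope of -0.03. Ror2 and Ror1, receptor tyrosine kinases that bind Wnt5a, rose with slopes of 0.31 ± 0.060 (adjusted p = 0.00341) and 0.35 ± 0.071 (adjusted p = 0.00484). Ror2 averaged 458 ± 111 in part 6 and 127 ± 42.1 in part 1 (SD, n = 2 each). Ror1 was dim, at 26.1 and 28.5 in part 6 and, below the array medians, 8.86 and 2.80 in part 1. Ptk7, a co-receptor of the planar polarity branch, fell (slope -0.43 ± 0.100, adjusted p = 0.0122), as did the atypical receptor kinase Ryk (-0.12 ± 0.028, adjusted p = 0.0146) and Fzd5 (-0.15 ± 0.040, adjusted p = 0.0249). The call of Ryk was lost with the mean of its kept probe sets (slope -0.036, adjusted p = 0.335) and with 2 of the 12 arrays left out singly. That of Fzd5 was lost under quantile normalization (adjusted p = 0.0547) and with 2 single arrays left out. Fzd5 stayed at signals of 7.46 to 21.6, near the array median, and Ptk7 lost its call without both arrays of part 6 (adjusted p = 0.219). In part 6 Ptk7 read 9.47 and 3.02, below the array medians, so the size of its fall is uncertain. Fzd4, Fzd6 and Lrp6 did not pass, Fzd6 with a negative slope at an unadjusted p of 0.0107.

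Of 7 other secreted antagonists tested, none rose, also at an unadjusted p under 0.05, 2 fell and 5 did not pass, with a median slope of -0.05. Sfrp5 and Sfrp4, of the same family as Sfrp1, did not pass (slopes 0.019 and -0.0036, adjusted p = 0.875 and 0.983). Dkk2, which binds Lrp co-receptors, read 1.91 and 1.34 in part 6, against 46.5 and 37.2 in part 1, and its slope was -0.59 ± 0.069 (adjusted p = 9.53e-05). The part 6 signals of Dkk2 cannot be told from background, so the size of its fall is uncertain. Notum, an enzyme that removes the lipid from Wnt proteins, fell with a slope of -0.38 ± 0.10 (adjusted p = 0.0282). It averaged 21.3 ± 13.0 in part 6 and 58.3 ± 11.6 in part 1 (SD, n = 2 each), and its call was lost with 5 of the 12 arrays left out singly. These antagonists thus did not share the direction of Sfrp1 and Sfrp2 in any gene called.

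Among 4 membrane inhibitors of Wnt reception, 1 rose, 1 fell and 2 did not pass. Apcdd1, an inhibitor at the cell surface, read 135 and 120 in part 6, against 473 and 459 in part 1 (slope -0.35 ± 0.035, adjusted p = 2.65e-05). Znrf3, a ubiquitin ligase that removes Frizzled proteins from the surface, rose by 0.10 ± 0.030 per part (adjusted p = 0.0410), a call lost with 10 of the 12 arrays left out singly. R-spondins counter Znrf3 through Lgr receptors. Of 4 genes of that group, Rspo3 read 130 and 85.0 in part 6, against 2581 and 2641 in part 1 (slope -0.97 ± 0.092, adjusted p = 1.85e-05), Lgr4 read 238 and 281 in part 6, against 42.9 and 66.3 in part 1 (slope 0.39 ± 0.040, adjusted p = 3.26e-05), and Lgr5 and Rspo1 did not pass. Rspo3 thus had its highest signal in the piece where Fzd2, Fzd7, Fzd9 and Lgr4 had their lowest. That piece also had the highest presomitic sum (2984) and the highest surface ectoderm sum (1129) of the series, both in replicate 1, and their part in the falls of Rspo3, Dkk2, Notum, Apcdd1 and Ptk7 was not tested.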

How the data were processed

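The deposited values are linear array intensities, 1 for each probe set on each array, made by the authors with MAS5 per the submitters' processing notes; no version or settings are given in the sources used here. RNA was amplified in a double round and labelled with biotin, per the labels' protocols, which weights signals toward the 3′ end of transcripts. Of 45101 probe sets, 34958 had a single gene symbol in the platform annotation. An offset of 4.43, which is 0.25 of the median signal (17.7), was added before taking log2, and nothing else was normalized. Probe sets above their array's median on at least 2 of 12 arrays were kept, and the one with the highest mean log2 signal stood for its gene. Fits used limma 3.58.1 (R 4.3.3), with Benjamini-Hochberg adjustment over 12089 genes at 0.05. A numeric term for the part number gave the slope. A second fit, with the piece as a factor, gave the F test, part 6 minus part 1, consecutive pieces and inner pieces (3 and 4) minus ends (1 and 6). Having 2 arrays of each piece limits the precision, and all p-values rest on 2 embryos.

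Replicate numbers were taken to mark the embryo, since arrays of the same number departed together from the means of their pieces in all 15 pairs of pieces (r from 0.175 to 0.325). The fits have no replicate block, so they treat arrays of an embryo as independent. All 10 genes were named with all their kept probe sets. The 7 not kept belonged to Sfrp1, Fzd1, Fzd3, Fzd7, Fzd10 and Frzb, with mean signals from 5.46 to 10.6. Of the other Wnt lists, the genes past the slope test were named or, for ligands and transducers, the 3 with the smallest p. Frizzled and Sfrp genes tested outside the 10 were named as well. Genes and lists were chosen with earlier results of these data known. The steps were tested on simulated data. Alternatives were other offsets, filters, normalizations and probe set rules, the replicate block, and arrays or pieces left out. Promoter stretches came from RefSeq.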

Additional observations from a re-analysis of the deposited data

How the results depend on the processing

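With 2 arrays per piece and no detection calls, the size of changes in dim genes such as Fzd9, Fzd8 and Frzb is uncertain. The slope calls of Fzd8 and Fzd9 held with any 1 array left out (adjusted p up to 0.000471 and 0.0275). That of Sfrp1, a brighter gene, was lost with 2 of the 12 arrays left out singly. Quantile normalization, median centring and an offset of 1 changed no call of the 10 genes. Over parts 2 to 6 the slopes of Fzd2, Fzd9 and Sfrp2 were 0.12, 0.13 and 0.15, and that of Sfrp1 was 0.16, none called. Without both arrays of part 1, 902 genes were called by slope instead of 1534, 3 of the 10 rose (Fzd3, Fzd7 and Fzd8), 300 genes passed the F test instead of 591, and 1 of the 10 passed it. Without both arrays of part 6 these genes numbered 988 and 319. Over parts 3 to 6 alone, chosen after seeing the data, 457 genes were called by slope and 3 of the 10 rose.

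With the replicate block, no call of the 10 genes changed, while the calls over the 5 consecutive steps numbered 87 instead of 56. Those steps gave 92 calls with an offset of 16, 21 with no filter, 114 with a filter at the 75th percentile and 35 with all kept probe sets tested. The difference between replicates called 367 genes with an offset of 16, 113 with no filter, 495 with the 75th percentile and 112 without part 6, instead of 196. The inner pieces differed from the ends for 78 genes with no filter instead of 122.

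Slopes of genes that did not pass changed sign: Frzb was -0.019 with an offset of 16 and -0.00582 without part 6, and over parts 3 to 6 Fzd1 was 0.043 and Fzd10 0.016. With single arrays left out, the Frzb slope ranged from -0.093 to 0.16 and its end difference from -1.31 to 0.59, and the Fzd10 slope from -0.12 to 0.012 and its end difference from -0.36 to 0.75. The same omissions gave 1175 to 1536 genes by slope with 6 or 7 of the 10 higher and 0 lower, and 331 to 558 by the F test with 4 to 6 of the 10. They gave 480 to 1308 genes between the ends with 5 or 6 of the 10 higher and 0 or 1 lower, 54 to 163 for inner pieces, 112 to 170 between replicates, 20 to 130 over the steps and 0 for the slope difference between replicates. The causes of these shifts were not tested.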

Other observations

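Of 15 Wnt ligand genes tested, 10 did not pass the slope test, 1 rose along the series and 4 fell, with a median slope of -0.06 log2 per part. Wnt5b averaged 60.3 ± 5.99 in part 6 and 911 ± 139 in part 1 (SD, n = 2 each), with a slope of -0.80 ± 0.081 (SE, adjusted p = 3.26e-05). Wnt5a, a ligand of Ror receptors that acts in axis elongation, averaged 285 ± 57.9 in part 6 and 1214 ± 165 in part 1 and had a slope of -0.42 ± 0.070 (adjusted p = 0.00141). Wnt1, a dorsal midline ligand of the closed tube, averaged 52.1 ± 18.0 in part 6 and 4.67 ± 1.07 in part 1, with a slope of 0.57 ± 0.061 (adjusted p = 4.56e-05). Its part 1 signals lie below the array medians and cannot be told from background.

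Of 16 intracellular transducers of the pathway tested, 3 rose, 1 fell and 12 did not pass, with a median slope of 0.02. The transcription factors Tcf7l1 and Tcf7l2 rose with slopes of 0.34 ± 0.064 (adjusted p = 0.00321) and 0.25 ± 0.056 (adjusted p = 0.0109). Tcf7l1 averaged 424 ± 31.4 in part 6 and 137 ± 91.7 in part 1 (SD, n = 2 each). Lef1, a factor of the same family, fell with a slope of -0.27 ± 0.073 (adjusted p = 0.0256), averaging 134 ± 40.1 in part 6 and 279 ± 154 in part 1, and its call was lost with 3 of the 12 arrays left out singly. Presomitic and surface ectoderm marker sums were lower in part 6 than in part 1, as given above, and their part in these rises and falls was not tested.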
